A study of Mus musculus with 10 samples.

Results

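The genes described here are interferon receptor chains, interferon regulatory factors and genes that interferons induce. They were chosen by name as a list of 50 genes, with earlier results of these data known, and matched to the arrays by gene symbol. Of the 50, 46 were measured, each by 1 probe set, among 19505 genes in all. Ddx60, Gbp5, Ifi47 and Ifi44 were not found under these symbols and were not analysed here. The samples were organoids from BALB/c mouse small intestine, which are three-dimensional cultures of intestinal epithelium grown in a basement membrane gel. Every culture received recombinant mouse TNF at 20 ng/ml for 48 h, so that both groups share the inflammatory stimulus. In 5 cultures pegtarazimod was added at 5 mg/ml, which is a pegylated peptide designed to block the classical complement pathway and myeloperoxidase. The other 5 cultures received PEG at 2.625 mM as the vehicle. Cultures that received no TNF, or that received an interferon, were not analysed here, so the values do not show how far TNF or an interferon moves these genes.

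Interferons act through paired receptor chains at the cell surface. Type I interferons bind Ifnar1 with Ifnar2, interferon gamma binds Ifngr1 with Ifngr2, and type III interferons, to which gut epithelium is known to respond, bind Ifnlr1 with Il10rb. The receptors signal through Janus kinases to STAT proteins. Complexes that hold Irf9 bind the interferon-stimulated response element (ISRE), and interferon gamma acts through the gamma-activated sequence (GAS). The genes switched on in this way encode sensors of viral nucleic acids, proteins that block viral replication, the ubiquitin-like modifier Isg15 and GTPases that attack vacuoles of intracellular pathogens.

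The letters of these elements were common near the start sites of the list. A pair of GAAA repeats with any 2 bases between them, read on both strands, stood for the ISRE, and TTCNNNGAA, which reads alike on both strands, for the GAS, and matches may overlap. Windows reaching from 250 bases before to 50 bases after the start site were taken from RefSeq on GRCm38.p6, and 35 of the 46 measured members had at least 1 such window. Of the 35, 17 (48.6%) held the ISRE letters, against 3.94% of 15691 tested genes with a window and 3.44% of all 32851 windows. GAS letters were in 13 of the 35 (37.1%), against 9.02% of the tested genes and 8.30% of all windows. A match is a description of letters and shows no binding. The 250 bases before the start site are printed for Isg15 and Ifit1, whose genes are textbook interferon targets, and for Oas1a, Irf2 and Irf8, which are among the members that changed. Capitals mark ISRE and GAS letters, each stretch reads 5′ to 3′ on the strand of its gene, and all coordinates are on GRCm38.p6. The Isg15 stretch is chr4:156200819-156201068 on the minus strand, that of Ifit1 chr19:34640639-34640888 on the plus strand and that of Oas1a chr5:120907526-120907775 on the minus strand. Those of Irf2 and Irf8 are chr8:46739495-46739744 and chr8:120736108-120736357, both on the plus strand.
Isg15: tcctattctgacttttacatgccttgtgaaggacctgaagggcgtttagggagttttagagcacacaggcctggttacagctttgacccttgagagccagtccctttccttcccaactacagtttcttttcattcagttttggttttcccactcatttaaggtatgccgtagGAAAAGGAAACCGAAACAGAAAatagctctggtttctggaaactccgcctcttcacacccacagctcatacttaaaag
Ifit1: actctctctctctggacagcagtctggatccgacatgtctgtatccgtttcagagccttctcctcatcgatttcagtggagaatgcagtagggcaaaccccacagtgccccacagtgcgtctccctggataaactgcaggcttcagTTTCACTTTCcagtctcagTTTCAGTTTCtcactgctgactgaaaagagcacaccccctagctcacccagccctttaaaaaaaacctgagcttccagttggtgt
Oas1a: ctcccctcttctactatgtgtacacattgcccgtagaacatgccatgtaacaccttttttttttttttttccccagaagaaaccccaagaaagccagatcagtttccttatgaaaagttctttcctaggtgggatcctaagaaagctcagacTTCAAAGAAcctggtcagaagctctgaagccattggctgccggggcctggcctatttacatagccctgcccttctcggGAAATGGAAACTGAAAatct
Irf2: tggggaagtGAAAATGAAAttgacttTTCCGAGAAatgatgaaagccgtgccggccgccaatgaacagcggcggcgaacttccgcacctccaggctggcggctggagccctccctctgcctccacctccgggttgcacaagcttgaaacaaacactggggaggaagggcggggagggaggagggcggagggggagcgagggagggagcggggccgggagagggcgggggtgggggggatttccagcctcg
Irf8: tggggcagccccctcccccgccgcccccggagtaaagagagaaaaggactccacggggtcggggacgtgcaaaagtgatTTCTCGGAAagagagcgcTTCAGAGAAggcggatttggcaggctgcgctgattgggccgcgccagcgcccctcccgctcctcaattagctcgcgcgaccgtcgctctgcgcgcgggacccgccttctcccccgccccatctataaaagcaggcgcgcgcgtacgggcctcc

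In Isg15 the 3 ISRE matches run into each other and begin 78, 72 and 66 bases before the start site. Ifit1 holds 2 separate ISRE matches on the other strand. Oas1a holds 2 overlapping ISRE matches within the last 20 bases before its start and 1 GAS match farther upstream. Irf2 holds 1 of each kind near the far end of the stretch, and Irf8 holds 2 GAS matches and no ISRE match.

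Expression was measured on 10 single-colour arrays, 5 per group, and is given as log2 values that the authors had normalised between arrays. Array medians over the named genes lay between 5.60 and 5.66, lower quartiles between 3.84 and 3.90 and upper quartiles between 7.35 and 7.44. No detection calls were used, so a value near or below the lower quartile cannot be told from background and a difference there may be understated. The number of arrays limits the precision. The series calls the replicates biological, but what differed between them is not stated, and p-values measure the spread between these samples. Replicates 1 and 2 of each group were set apart from replicates 3 to 5. A model term for this split raised the genes past the threshold stated below from 954 to 1820. The labels give no reason for a split, and differences within these 2 subsets stand beside the results they touch. The labelled tissue was borne out by 10 of 10 epithelial marker genes (among them Epcam, Cdh1 and Vil1), whose means all lay above the upper quartile of every array, whereas none of 10 T and NK cell, 13 macrophage and dendritic cell or 11 fibroblast and endothelial markers did. Differences are pegtarazimod minus vehicle on the log2 scale, were tested with limma, and count as changed at an adjusted p (Benjamini-Hochberg over 19505 genes) below 0.05.

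With pegtarazimod, 4 of the 46 measured members rose and none fell. These were the transcription factor genes Irf8 (1.51-fold higher), Irf9 (1.47-fold) and Irf2 (1.29-fold), and Oas1a (1.42-fold), which encodes an antiviral oligoadenylate synthetase. The count was 8.70% of the members, against 4.89% of all genes tested, of which 2.50% rose and 2.39% fell. At an unadjusted limma p below 0.05 there were 17 members (37.0%, against 19.0% of all genes). Of these, 12 were higher (26.1%, against 9.31%) and 5 were lower (10.9%, against 9.65%). Groups did not overlap for 5 members (10.9%, against 6.71% of all genes). All 5 were higher with pegtarazimod, whereas 3.35% of all genes lay apart with higher and 3.36% with lower values. The median difference was 0.05 over the members and 0.00285 over all genes tested, and 27 of 46 differences were above 0 (58.7%, against 50.7%). The differences ranged from -0.55 for Ifit2 to 0.59 for Irf8.

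**Figure D1:**
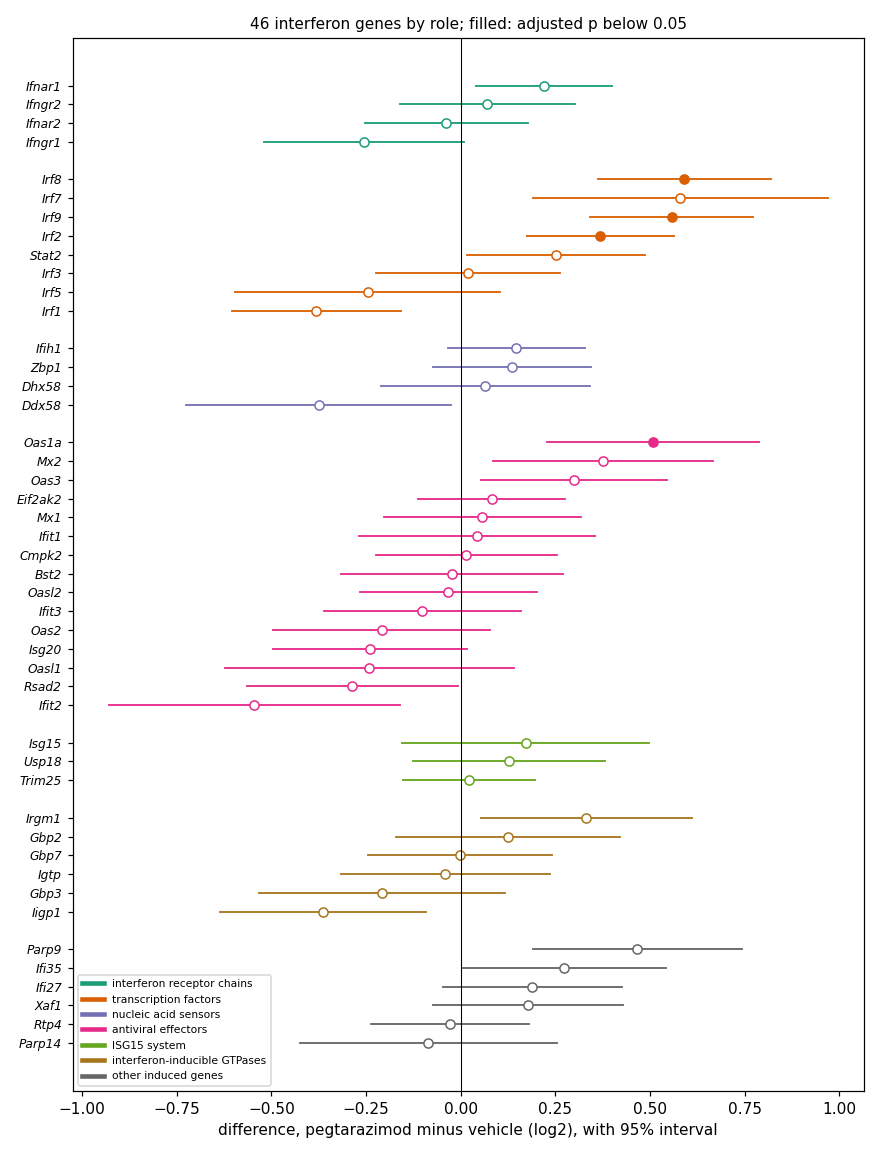
Differences between pegtarazimod and vehicle (log2, horizontal axis) for the 46 measured genes, grouped by role, with lines for unadjusted 95% intervals from limma (5 arrays per group). Filled points, at Irf8, Irf9, Irf2 and Oas1a, mark an adjusted p below 0.05, and no interval reaches -1 or 1.

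The intervals show how far each difference was bounded on the scale of these values. Differences of members near or below the lower quartile may be understated, so a bound there is weaker. For all 46, the 95% interval of the difference lay between -1 and 1, so that no 2-fold difference was within it on the scale of these values (97.1% of all genes were so bounded). For 27 of them it lay between -0.5 and 0.5 (58.7%, against 78.6% of all genes). The median within-group standard deviation was 0.20 for the members and 0.18 for all genes. Among the members it was largest for Irf7 (0.35), Ifit2 (0.34) and Oasl1 (0.34) and smallest for Trim25 (0.08), Ifnar1 (0.09) and Ifih1 (0.09).

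Levels differed widely by role. Of the 46 members, 12 had a mean below the lower quartile of every array (26.1%, against 24.5% of all genes) and 7 a mean above the upper quartile of every array (15.2%, against 24.3%). Those below were Ifit1, Ifit3, Oas3, Mx1, Isg15, Gbp2, Gbp3, Iigp1, Igtp, Ifi27, Xaf1 and Rtp4, which are mostly genes known for low expression until an interferon acts. Those above were the receptor chain genes Ifnar1, Ifngr1 and Ifngr2, Irf2, the sensor gene Ifih1, the kinase gene Eif2ak2 and the ubiquitin ligase gene Trim25. Probes differ in how strongly they bind, so a place within the array is no measure of the number of transcripts.

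**Figure D2:**
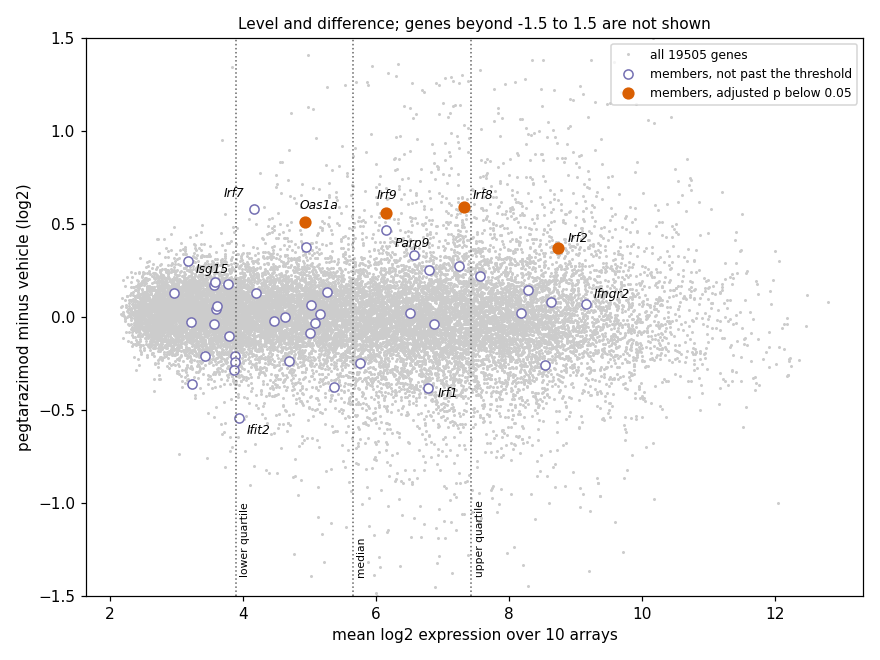
Mean log2 expression over 10 arrays (horizontal axis) against the difference between pegtarazimod and vehicle (log2, vertical axis), for the 19505 genes in grey (those beyond -1.5 or 1.5 are not drawn) and the 46 members as circles, with dotted lines at the quartiles and median of the arrays. The 4 members past the threshold lie at means between 4.94 and 8.75, and Isg15 lies to the left of the lower quartile.

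None of the 4 receptor chain genes passed, and 1 had an unadjusted limma p below 0.05 (25%, against 19.0% of all genes). Ifnar1, a chain of the type I receptor, measured 7.48, 7.53, 7.39, 7.40 and 7.51 in vehicle replicates 1 to 5 and 7.61, 7.77, 7.55, 7.80 and 7.68 in pegtarazimod replicates 1 to 5. Every pegtarazimod array was above every vehicle array, but the step was small and did not pass (0.22 ± 0.08 SE, limma adjusted p = 0.163). Its partner Ifnar2 differed by -0.04 (95% interval -0.25 to 0.18). Ifngr2, a chain of the interferon gamma receptor and the receptor gene with the highest signal, measured 9.21, 9.24, 9.12, 9.03 and 9.0 with vehicle and 9.40, 9.38, 9.22, 8.99 and 8.96 with pegtarazimod, and these groups overlapped. Its ligand-binding partner Ifngr1 differed by -0.26 (limma adjusted p = 0.282).

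Irf8, a transcription factor best known for its part in myeloid and lymphoid development, had the largest increase of the list. It measured 7.20, 6.89, 6.97, 6.92 and 7.16 in vehicle replicates 1 to 5 and 7.76, 7.85, 7.47, 7.45 and 7.56 in pegtarazimod replicates 1 to 5. Each pegtarazimod array was above each vehicle array, and pegtarazimod 1 and 2 were the highest. The mean rose from 7.03 ± 0.15 to 7.62 ± 0.18 (SD, n = 5 per group), a difference of 0.59 ± 0.11 (SE, limma adjusted p = 0.00672). Taken alone, replicates 1 and 2 gave 0.76 (adjusted p = 0.00757), and the remaining arrays gave 0.48 (adjusted p = 0.0464), both with the spread pooled over 10 arrays. Because Irf8 is a gene of myeloid cells, markers of those cells stand beside it. None of 13 measured macrophage and dendritic cell markers passed, and 6 had means below the lower quartile of every array. Their differences ran from -0.48 (Cd14) to 0.39 (Itgam), with a median of -0.05. At an unadjusted limma p below 0.05 there were 2 (15.4%, against 19.0% of all genes). Itgam was higher and Ly6c2 lower (-0.31, limma adjusted p = 0.0964), and the groups of Ly6c2 did not overlap. The log2 of their summed linear values was 7.91 to 8.31 with vehicle and 7.69 to 8.26 with pegtarazimod. In bulk RNA, a change in the share of a cell type and a change in the RNA per cell cannot be told apart.

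Irf9, a DNA-binding subunit of the complex that recognises the ISRE, measured 5.82, 6.06, 5.84, 5.92 and 5.74 in vehicle replicates 1 to 5 and 6.50, 6.58, 6.26, 6.24 and 6.56 in pegtarazimod replicates 1 to 5. The groups did not overlap. The mean rose from 5.87 ± 0.12 to 6.43 ± 0.17 (SD, n = 5 per group), by 0.56 ± 0.10 (SE, limma adjusted p = 0.00672). The subsets gave 0.61 and 0.53, and the gene passed in both. Irf8 and Irf9 passed in all 22 alternative analyses run for each, including every analysis that left out 1 array, with adjusted p of 0.00142 to 0.0464 and of 0.00157 to 0.0346. Stat2, which works together with Irf9, differed by 0.25 and did not pass (adjusted p = 0.231).

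Irf2, which competes with Irf1 for shared binding sites and is known mostly as a repressor, measured 8.65, 8.42, 8.59, 8.47 and 8.67 in vehicle replicates 1 to 5 and 9.03, 8.87, 9.07, 8.79 and 8.88 in pegtarazimod replicates 1 to 5. The lowest pegtarazimod array lay just above the highest vehicle array. The mean rose from 8.56 ± 0.11 to 8.93 ± 0.12 (SD, n = 5 per group; 0.37 ± 0.09 SE, limma adjusted p = 0.0335). This call was lost on leaving out any of vehicle 2, 3 or 4 or pegtarazimod 1, 2 or 3, with adjusted p from 0.0615 to 0.0895. Within the subsets the difference was 0.42 and 0.34 and passed in neither (adjusted p = 0.135 and 0.178).

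Irf1, the activator induced by interferon gamma and by TNF, differed in the other direction and just missed the threshold. It measured 7.0, 7.12, 7.09, 6.71 and 6.97 in vehicle replicates 1 to 5 and 6.52, 6.76, 6.37, 6.64 and 6.69 in pegtarazimod replicates 1 to 5. Pegtarazimod 2 lay above vehicle 4, and otherwise the pegtarazimod arrays were the lower ones. The difference was -0.38 ± 0.10 (SE, limma adjusted p = 0.0516), and the subsets gave -0.42 and -0.36. It passed in 6 of 22 alternatives, with adjusted p from 0.0270 to 0.206. Among those were a term for the subsets (adjusted p = 0.0284), both filters on dim genes (0.0413 and 0.0270) and leaving out vehicle 4 (0.0357).

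Irf7, the factor that amplifies type I interferon production, measured 3.80, 4.26, 4.47, 3.54 and 3.31 in vehicle replicates 1 to 5 and 4.51, 4.51, 4.44, 4.28 and 4.54 in pegtarazimod replicates 1 to 5. Its vehicle arrays were the most scattered of the list (SD 0.48), and 3 of them lay below the lower quartiles of the arrays, whereas the pegtarazimod arrays lay close together (SD 0.10). The difference of 0.58 did not pass (limma adjusted p = 0.0890), and it passed in 2 of 21 alternatives, among them leaving out vehicle 3 (adjusted p = 0.0317 to 0.436 over the alternatives). Irf3, which shares this role with Irf7, differed by 0.02 (95% interval -0.22 to 0.26). Irf5, a factor of inflammatory cytokine genes, differed by -0.25 (adjusted p = 0.469). Over the 8 transcription factor genes 3 rose and none fell (37.5%, against 4.89% of all genes called and 2.50% higher). At an unadjusted limma p below 0.05, 5 were higher (62.5%, against 9.31% of all genes) and 1 was lower (12.5%, against 9.65%). The median difference of the 8 genes was 0.31. The median deviation of these 8 genes from their own means lay between -0.23 and -0.05 in the vehicle arrays and between 0.07 and 0.33 in the pegtarazimod arrays. Over all 46 members this measure overlapped between the groups (-0.08 to 0.06 with vehicle and -0.03 to 0.07 with pegtarazimod). It also overlapped in each of the other roles.

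**Figure D3:**
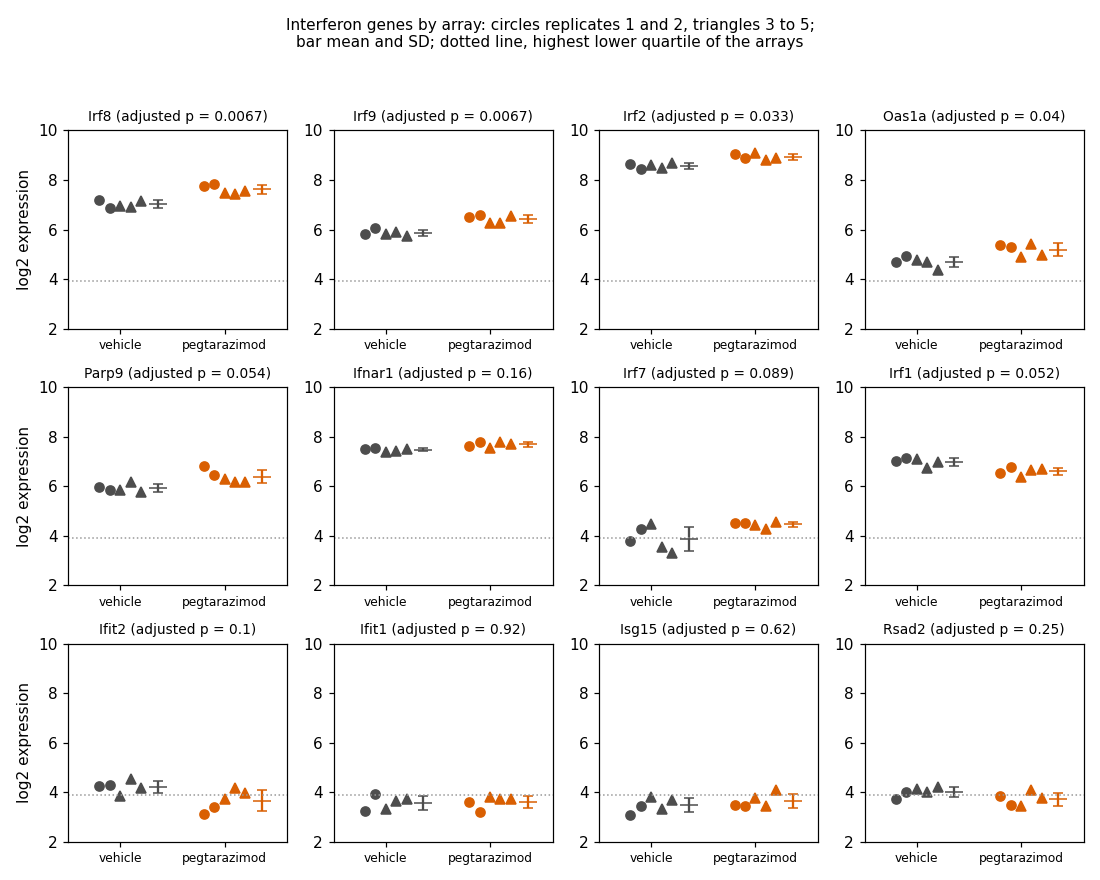
Log2 expression (vertical axis) of 12 of the genes in each array, vehicle in grey and pegtarazimod in orange, circles for replicates 1 and 2 and triangles for replicates 3 to 5, with bars for the mean and SD of 5 arrays and a dotted line at the highest lower quartile of the arrays. Groups are apart for Irf8, Irf9, Irf2, Parp9 and Ifnar1. Ifit1 and Isg15 lie mostly below the dotted line in both groups, and Rsad2 lies about it.

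Sensors of viral nucleic acids did not change by the test. None of the 4 measured sensor genes passed, and 1 had an unadjusted limma p below 0.05 (25%, against 19.0% of all genes). Ifih1, which encodes the long double-stranded RNA sensor MDA5, measured 8.31, 8.11, 8.13, 8.29 and 8.21 with vehicle and 8.24, 8.32, 8.38, 8.49 and 8.35 with pegtarazimod. These groups overlapped, and the difference was 0.15 (95% interval -0.03 to 0.33). Ddx58, which encodes the RNA sensor RIG-I, differed by -0.38 (limma adjusted p = 0.230), with -0.14 and -0.53 in the 2 subsets. Dhx58, a regulator of both sensors, differed by 0.06, and Zbp1, a sensor of Z-form nucleic acids linked to necroptosis, by 0.14.

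Among 15 antiviral effector genes 1 rose and none fell (6.67%, against 4.89% of all genes). At an unadjusted limma p below 0.05 there were 5 (33.3%, against 19.0%), 3 of them higher and 2 lower. Oas1a measured 4.67, 4.94, 4.77, 4.68 and 4.36 in vehicle replicates 1 to 5 and 5.39, 5.31, 4.90, 5.41 and 4.95 in pegtarazimod replicates 1 to 5. Vehicle 2 lay above pegtarazimod 3, so the groups overlapped by a small margin. The mean rose from 4.68 ± 0.21 to 5.19 ± 0.24 (SD, n = 5 per group; 0.51 ± 0.13 SE, limma adjusted p = 0.0398). The call was lost on leaving out any of vehicle 1, 3, 4 or 5 or pegtarazimod 1, 2 or 4, with adjusted p from 0.0661 to 0.0992, and within the subsets (0.54 and 0.48, adjusted p = 0.126 and 0.125). Oas1a has near-identical relatives on the same chromosome, and its probes may take up their signal.

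The other oligoadenylate synthetase genes did not pass. Oas3 differed by 0.30 from a vehicle mean of 3.02, below the lower quartile of the arrays, Oas2 by -0.21, and the related Oasl1 and Oasl2 by -0.24 and -0.03. Limma adjusted p of these 4 genes lay between 0.167 and 0.917.

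The Ifit genes encode proteins that bind foreign RNA, and Ifit2 had the lowest difference of the list. It measured 4.24, 4.30, 3.85, 4.52 and 4.16 in vehicle replicates 1 to 5 and 3.12, 3.39, 3.71, 4.16 and 3.95 in pegtarazimod replicates 1 to 5. Pegtarazimod 1 and 2 were the lowest arrays, and the pegtarazimod mean lay below the lower quartiles. The difference of -0.55 did not pass over 10 arrays (limma adjusted p = 0.103). In replicates 1 and 2 alone Ifit2 passed, at -1.01 (adjusted p = 0.00996), while replicates 3 to 5 gave -0.23 (adjusted p = 0.566). The difference between these subsets was not past the threshold (adjusted p = 0.455). Leaving out pegtarazimod 4 gave an adjusted p of 0.0342, in a range of 0.00996 to 0.566 over the alternatives. Ifit1 measured 3.24, 3.93, 3.34, 3.66 and 3.71 with vehicle and 3.62, 3.20, 3.79, 3.74 and 3.73 with pegtarazimod. Its groups overlapped, and with 2 ISRE matches printed above it differed by 0.04 (95% interval -0.27 to 0.35). Ifit3, which lies next to Ifit2 on chromosome 19 with no protein-coding gene between them, differed by -0.10.

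Eif2ak2, which encodes the double-stranded RNA-activated kinase PKR, was the effector gene with the highest signal. It measured 8.71, 8.63, 8.48, 8.56 and 8.57 with vehicle and 8.49, 8.59, 8.74, 8.83 and 8.71 with pegtarazimod. The groups overlapped, and the difference was 0.08 (95% interval -0.11 to 0.28). Rsad2, which encodes viperin, differed by -0.29, while the nucleotide kinase gene Cmpk2, its direct neighbour on chromosome 12, differed by 0.02. The exonuclease gene Isg20 differed by -0.24 and the gene of the virus tether Bst2 by -0.02. Mx2 differed by 0.38 and Mx1 by 0.06, neither past the threshold. Both encode dynamin-like proteins and are listed as transcribed pseudogenes in the RefSeq table of the C57BL/6J genome, and BALB/c mice are also known to carry a defective Mx1 allele. Limma adjusted p of these 6 genes lay between 0.137 and 0.963.

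None of the 3 genes of the Isg15 system passed, and none had an unadjusted limma p below 0.05 (against 19.0% of all genes). Isg15, the modifier that is attached to other proteins, measured 3.10, 3.46, 3.79, 3.33 and 3.69 in vehicle replicates 1 to 5 and 3.49, 3.44, 3.76, 3.45 and 4.09 in pegtarazimod replicates 1 to 5. Of these 10 values 9 were below the lower quartiles of the arrays, and the groups overlapped. The difference was 0.17 (95% interval -0.15 to 0.50, adjusted p = 0.619). Trim25, a ligase that takes part in Isg15 and RIG-I signalling, measured 8.28, 8.17, 8.18, 8.08 and 8.16 with vehicle and 8.25, 8.25, 8.26, 8.14 and 8.08 with pegtarazimod. This was the steadiest gene of the list, with a difference of 0.02 (95% interval -0.15 to 0.20). Usp18, which removes Isg15 and restrains the type I receptor, differed by 0.13.

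The interferon-inducible GTPases showed no call among 6 measured genes, with 2 at an unadjusted limma p below 0.05 (33.3%, against 19.0% of all genes). Irgm1, a regulator of autophagy and of the other family members, measured 6.65, 6.37, 6.24, 6.0 and 6.77 with vehicle and 6.72, 6.73, 6.65, 6.78 and 6.81 with pegtarazimod. The vehicle arrays were scattered (SD 0.31) and the pegtarazimod arrays close together (SD 0.06), and the difference of 0.33 did not pass (adjusted p = 0.177). Iigp1 differed by -0.36 (adjusted p = 0.125). It passed in replicates 1 and 2 alone, at -0.72 (adjusted p = 0.0125), and replicates 3 to 5 gave -0.12 (adjusted p = 0.715). The difference between its subsets was not past the threshold (adjusted p = 0.431, the lowest of the 46 members), and both its group means were under the lower quartiles of the arrays. Igtp differed by -0.04, and the guanylate-binding protein genes Gbp2, Gbp3 and Gbp7 differed by 0.13, -0.21 and -0.0021. Gbp3 had opposite signs in the subsets (0.15 and -0.45), passing in neither.

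Of 6 other induced genes none passed and 2 had an unadjusted limma p below 0.05 (33.3%, against 19.0% of all genes). Parp9, an ADP-ribosyltransferase family gene whose product works in a complex with the ubiquitin ligase Dtx3l, measured 5.98, 5.85, 5.85, 6.16 and 5.76 in vehicle replicates 1 to 5 and 6.83, 6.46, 6.29, 6.17 and 6.18 in pegtarazimod replicates 1 to 5. The groups did not overlap, although pegtarazimod 4 and 5 lay at the highest vehicle array. The difference of 0.47 ± 0.13 (SE) just missed the threshold (limma adjusted p = 0.0536). Replicates 1 and 2 alone gave 0.73, past the threshold (adjusted p = 0.0187), and replicates 3 to 5 gave 0.29 (adjusted p = 0.327). It passed in 10 of 22 alternatives, both other scalings among them (adjusted p = 0.0484 after quantile normalisation and 0.0449 after median centring, in a range of 0.0187 to 0.327). Dtx3l, which lies next to Parp9 on chromosome 16, is given with the other pathway genes.

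Ifi35, a member that binds other interferon-induced proteins and had the highest signal of this group, measured 7.23, 7.02, 7.13, 7.04 and 7.18 with vehicle and 7.58, 7.60, 7.21, 6.97 and 7.60 with pegtarazimod. Pegtarazimod 4 was below every vehicle array and the other 4 were not, and the difference of 0.27 did not pass (adjusted p = 0.260). Ifi27 differed by 0.19, the apoptosis-linked gene Xaf1 by 0.18, Rtp4 by -0.03 and the ADP-ribosyltransferase gene Parp14 by -0.09. Parp14 lies close to Parp9, with 1 protein-coding gene between them.

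The subsets gave like directions for 32 of the 46 members, the 4 members that rose and Irf1, Irf7, Ifit2 and Parp9 among them. These directions are not independent of the calls, since both subsets enter the comparison over 10 arrays. The share over all genes was not computed, so the count does not show that the members were steadier than other genes. Within replicates 1 and 2, 5 members passed (10.9%, against 6.30% of all genes), namely Irf8, Irf9, Parp9, Ifit2 and Iigp1. Within replicates 3 to 5, 2 passed (4.35%, against 3.34%), namely Irf8 and Irf9. With a term for the subsets in the model, 7 members passed (15.2%, against 9.33% of all genes). They were the 4 members that rose, Parp9 with higher values (adjusted p = 0.0204) and Irf1 and Ifit2 with lower values (0.0284 and 0.0470). A test of the difference between the subsets called none of the 46 and 5 of the 19505 genes (0.0256%).

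**Figure D4:**
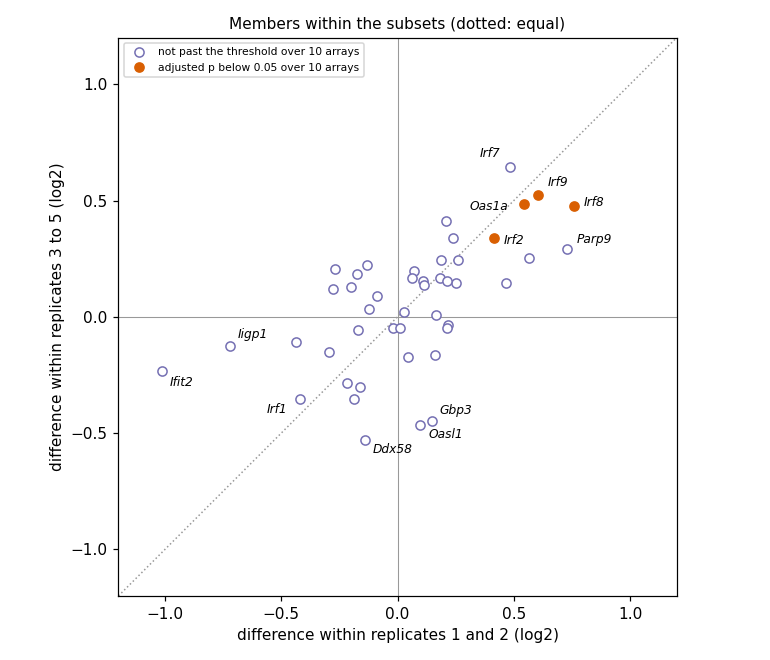
Difference between pegtarazimod and vehicle (log2) within replicates 1 and 2 (horizontal axis) against that within replicates 3 to 5 (vertical axis) for the 46 members, filled where the adjusted p over 10 arrays was below 0.05, with a dotted line where both are equal. Irf8, Irf9, Irf2 and Oas1a are positive in both, and Ifit2 and Iigp1 lie far to the left (-1.01 and -0.72).

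Members that rose were found with and without the letters of both elements. Of 17 members with ISRE letters, 2 rose (Irf2 and Oas1a), and of 18 without, 2 rose (Irf8 and Irf9). The median difference was 0.08 in the former and 0.02 in the latter, and over all tested genes 0.028 with ISRE letters and 0.0024 without. Over all tested genes with a window, 4.85% of 618 with ISRE letters and 4.86% of 15073 without them changed. Of 13 members with GAS letters, 3 rose (Irf2, Irf8 and Oas1a), and of 22 without, 1 rose (Irf9). Over all tested genes the shares were 5.30% of 1416 with GAS letters and 4.82% of 14275 without. The median difference of the members was -0.0021 with GAS letters and 0.03 without, and over all tested genes -0.0070 and 0.0043. These counts and medians rest on too few members to read a difference among the members from them.

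The rest of the pathway was read from 4 lists that hold no member. They were drawn up by function, with earlier results of these data known. Of 111 measured genes 4 rose and 2 fell (5.41%, against 4.89% of all genes), and their median difference was 0.02. None of 19 measured interferon ligand genes passed, and none had an unadjusted limma p below 0.05 (against 19.0% of all genes). The smallest p were those of Ifnz (-0.18, limma adjusted p = 0.311) and Ifnab (0.16, adjusted p = 0.317), both with means below the lower quartile of every array. Ligand genes of this family are alike in sequence and may share probes.

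Of 13 receptor and JAK-STAT genes outside the list 1 rose (7.69%, against 4.89% of all genes called and 2.50% higher). This was Il10rb, which encodes the chain shared by the type III interferon and interleukin 10 family receptors. Il10rb measured 8.57, 8.47, 8.46, 8.43 and 8.47 in vehicle replicates 1 to 5 and 9.33, 9.07, 9.08, 9.04 and 8.91 in pegtarazimod replicates 1 to 5. The groups were clearly apart. The mean rose from 8.48 ± 0.05 to 9.09 ± 0.15 (SD, n = 5 per group), 1.52-fold (limma adjusted p = 0.00248), and the subsets gave 0.68 and 0.56. It passed in all 22 alternatives. On chromosome 16 Il10rb lies between Ifnar2 and Ifnar1, and Ifngr2 follows Ifnar1, with no other protein-coding gene between neighbours, and these 3 genes differed by -0.04, 0.22 and 0.07. Ifnlr1, which encodes the specific chain of the type III receptor, differed by -0.0025 (95% interval -0.26 to 0.25).

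Of 15 genes of nucleic acid sensing and interferon induction 1 fell (6.67%, against 4.89% of all genes called and 2.39% lower). Of their differences 5 were above 0 (33.3%, against 50.7%). At an unadjusted limma p below 0.05, 1 was higher (6.67%, against 9.31%) and 3 were lower (20%, against 9.65%). Their median deviation from their own means was 0.04 to 0.13 with vehicle and -0.08 to 0.03 with pegtarazimod. In each of the other pathway lists this measure overlapped between the groups. Sting1, the adaptor of cytosolic DNA sensing, measured 4.01, 4.70, 4.96, 4.51 and 4.59 in vehicle replicates 1 to 5 and 3.32, 3.51, 4.46, 3.68 and 3.28 in pegtarazimod replicates 1 to 5. Pegtarazimod 3 reached into the vehicle range, and the other 4 lay below the lower quartiles of the arrays. The difference was -0.90 ± 0.21 (SE, limma adjusted p = 0.0278), and the call did not survive leaving out any of 7 arrays (vehicle 2 to 5 and pegtarazimod 1, 2 and 5), with adjusted p up to 0.0827 without vehicle 3, and within both subsets (0.106 and 0.0887).

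Of 64 other interferon-inducible genes 3 rose and 1 fell (6.25%, against 4.89% of all genes). Ifitm3, which encodes a membrane protein that restricts virus entry, measured 7.01, 7.32, 8.11, 7.86 and 7.80 in vehicle replicates 1 to 5 and 5.55, 5.83, 6.27, 6.40 and 6.77 in pegtarazimod replicates 1 to 5. The groups were apart, and in each group replicates 1 and 2 were lower than replicates 3 to 5. It fell 2.74-fold (limma adjusted p = 0.00342), and the subsets gave -1.48 and -1.44. Its relatives Ifitm1 and Ifitm2 differed by -0.15 and -0.23. Its window held 2 ISRE matches and 1 GAS match, all after the start site. Ifitm3 passed in all 22 alternatives.

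Ifi27l2b, a relative of Ifi27 that encodes a small membrane protein, measured 8.86, 8.83, 8.72, 8.49 and 8.69 in vehicle replicates 1 to 5 and 10.06, 9.96, 9.81, 9.72 and 9.82 in pegtarazimod replicates 1 to 5. It rose 2.23-fold with a wide gap between the groups (limma adjusted p = 4.35e-05) and passed in all 22 alternatives. Ifi27l2a rose 1.53-fold (adjusted p = 0.0215), without a call in replicates 3 to 5 (0.44, adjusted p = 0.206) or without vehicle 4 (0.0638). Ifi27 itself differed by 0.19, as given above. Dtx3l rose 1.33-fold, from 7.31 ± 0.07 to 7.72 ± 0.22 (SD, n = 5 per group; limma adjusted p = 0.0437). The subsets gave 0.61 and 0.28, and the call of Dtx3l was lost on leaving out any array but pegtarazimod 5, with adjusted p up to 0.112 without vehicle 3.

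**Figure D5:**
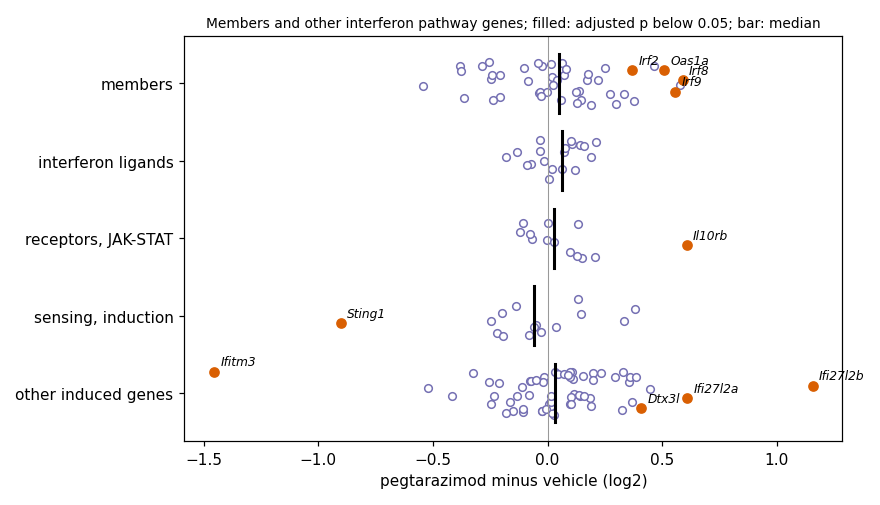
Differences between pegtarazimod and vehicle (log2, horizontal axis) for the 46 members and 4 lists of other pathway genes (rows, 1 point per gene), filled and named where the adjusted p was below 0.05, with a bar at the median. The medians lie between -0.06 and 0.06, and Ifi27l2b at 1.16 and Ifitm3 at -1.45 lie farthest out.

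Of the 10 epithelial markers 1 passed (10%, against 4.89% of all genes). Of their differences 8 were above 0 (80%, against 50.7%), and the median was 0.13. The median deviation of the 10 markers from their own means lay between -0.11 and -0.04 in the vehicle arrays and between 0.01 and 0.11 in the pegtarazimod arrays. At an unadjusted limma p below 0.05, 4 were higher (40%, against 9.31% of all genes), namely Krt19, Krt20, Vil1 and Cldn7. At that threshold 1 was lower (10%, against 9.65%), namely Krt18 (-0.47, limma adjusted p = 0.140). Krt19 rose (0.33, limma adjusted p = 0.0350, lost on leaving out any array but vehicle 5, up to 0.103 without vehicle 3), and Krt20, a keratin of mature villus cells, differed by 0.72 (adjusted p = 0.151), with 1.18 and 0.41 in the subsets. The log2 of the summed linear values of the 10 markers was 13.71 to 13.82 with vehicle and 13.80 to 13.86 with pegtarazimod. The part of cell composition in the changes of Irf8, Irf9, Irf2 and Oas1a was not tested. None of the 10 T and NK cell markers passed, and 1 had an unadjusted limma p below 0.05 (10%, against 19.0% of all genes). Their summed level was 7.67 to 7.91 with vehicle and 7.76 to 7.90 with pegtarazimod. None of the 11 fibroblast and endothelial markers passed, and 1 had an unadjusted limma p below 0.05 (9.09%). Their summed level was 8.26 to 8.45 with vehicle and 8.31 to 8.46 with pegtarazimod. Median deviations overlapped between the groups in each marker list other than the epithelial one.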

How the data were processed

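RNA of 10 cultures was measured on single-colour arrays. Per the labels' protocols it was column-purified, amplified and labelled with biotin with a kit for whole transcripts. The authors deposited a log2 value for each probe set. The submitters' processing notes name oligo and RMA, a method that corrects background, normalises by quantiles and summarises probes. Their versions and the build: not given in the sources used here. Quantile normalisation hides a shift shared by most genes.

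Of 22203 probe sets 19572 had 1 gene symbol in the platform annotation, 0 had several and 2631 were unnamed here and left out. They gave 19505 genes, and 55 genes with several probe sets, no member among them, were represented by that with the highest mean. Groups and replicate numbers came from sample titles. The groups were compared by limma 3.58.1 (R 4.3.3; lmFit, then eBayes) without covariates over all genes, and p-values were adjusted by Benjamini-Hochberg. Intervals are 95% and unadjusted, with 14.03 degrees of freedom. The members, their roles, the other lists and the tests were chosen with earlier results of these data known, so lists are described by counts beside those of all genes and have no p-value. Every member is named. Values of every array are given for members past the threshold, members whose groups do not overlap or that differ by at least 0.5, and the member of each role with the highest mean; Irf1, Ifit1 and Isg15 were added after their values were seen. Of other lists, up to 4 genes past the threshold, or else the 2 with the smallest p, are named; relatives and neighbours of named genes, receptor genes, and single markers were added. Members of the Ifit, Oas, Gbp and interferon families may share probe signal.

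On simulated arrays with the means and moderated spreads of these 19505 genes, the test recovered 38 of 67 genes changed by 0.5, 66 of 67 changed by 1 and 66 of 66 changed by 2, and 11 of 181 calls were false. Fewer genes were changed there than were called in the data, and noise was independent, without the subsets. Recovery in the data may therefore differ. Plots used matplotlib 3.10.9 under Python 3.11.15. Alternatives covered scaling, filters on dim genes, the variance model, array weights, probe set choice, the replicate number, the subsets and leaving out each array.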

Additional observations from a re-analysis of the deposited data

Results flagged for a closer look

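In 92 groups of 5 arrays (46 genes in both treatments), 2 held a value far from the other 4 by Dixon's criterion, which chance alone flags in about 1 of 20 groups. Ifit1 was 3.20 in pegtarazimod 2, against 3.62 to 3.79 in the other pegtarazimod arrays. Ifi27 was 3.97 in pegtarazimod 2, against 3.56 to 3.64 in the others. Both genes had means below the lower quartile of every array, and neither passed with or without pegtarazimod 2.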

How the results depend on the processing

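Irf8 and Irf9 kept direction and call in all 22 alternatives, Irf2 in 14 of 22 and Oas1a in 12 of 21 (it was not among the brightest 50% of genes). Of the 42 members that did not pass, 37 passed in no alternative and 5 (Irf1, Irf7, Ifit2, Iigp1 and Parp9) in some, and no called member changed sign. Leaving out 1 array at a time gave 2 to 5 members, 3 to 5 other pathway genes, 437 to 1245 genes in all and a member median of 0.02 to 0.08. The count of members was 2 without pegtarazimod 1 or 2. That of other pathway genes was 3 without vehicle 4, and that of all genes was 437, 498 and 562 without vehicle 3, 4 and 5 and 552 and 522 without pegtarazimod 1 and 2. A term for replicates 1 and 2 against 3 to 5 gave 7 members (5 higher and 2 lower), 10 other pathway genes and 1820 genes in all. Within replicates 3 to 5 there were 2 members, 3 other pathway genes and a member median of 0.12. Without the dimmest 50% of genes the member median was 0.15. The causes were not tested. Vehicle and pegtarazimod arrays share replicate numbers. Deviations of same-numbered arrays from their group means correlated at 0.299, 0.310, 0.0993, 0.227 and 0.130, with replicate 3 just under the limit of 0.1 set for pairing. Of 10 arrays 8 correlated best with their own number, which is a hint from the data. Same-numbered arrays also share a subset, and whether the split between the subsets alone gives this hint was not tested. With the replicate number as a block there were 8 members (6 higher and 2 lower; the 4 that rose, with Irf7 at an adjusted p of 0.0382, Parp9 at 0.0304, Irf1 at 0.0469 and Ifit2 at 0.0383), 10 other pathway genes and 1606 genes in all (8.23% of those tested). Signal near the low end of the arrays limits what can be said of 12 members.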
